A study of Homo sapiens with 6 samples.

Results

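The 10 genes described here are regulators and detoxification targets of NRF2, the transcription factor encoded by NFE2L2. They were taken by name from the deposited gene table and are 10 of its 17687 genes. KEAP1, BACH1, MAFG and MAFF are regulators or partners of NRF2, and NQO1, OSGIN1, AKR1C1, AKR1B10 and UGDH are genes of its target programme. RNA was sequenced from KHM-5M, a human cell line from anaplastic thyroid cancer, grown in RPMI-1640 with fetal bovine serum. The study looked for early transcriptomic changes after sodium selenite (SS), a selenium salt. There were 3 groups of 2 libraries: control cells treated with phosphate-buffered saline (PBS), cells treated with SS, and cells treated with SS and N-acetylcysteine (SS+NAC), a thiol given to remove reactive oxygen species. No group received NAC alone, and the labels give no dose or time with a unit. All libraries come from 1 cell line, and the replicates are described in the study's methods as biological.

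In cells at rest, KEAP1 binds NRF2 and presents it to a CUL3 ubiquitin ligase, so that NRF2 is degraded by the proteasome. Electrophiles and oxidants modify cysteines of KEAP1, and NRF2 then accumulates, enters the nucleus and binds antioxidant response elements together with a small Maf protein such as MAFG or MAFF. BACH1 is a repressor that competes for the same elements. Much of this control acts on protein, which RNA-seq does not measure. The targets reduce quinones and carbonyls, conjugate and export their products, and supply glutathione, thioredoxin and NADPH. Constitutive NRF2 activity is known from many carcinomas.

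On GRCh38 (GENCODE release 29) the regulators lie at chr2:177227595-177392697 on the minus strand for NFE2L2, chr19:10486120-10503741 on the minus strand for KEAP1, chr21:29194071-29630751 on the plus strand for BACH1, chr17:81918270-81927714 on the minus strand for MAFG and chr22:38200767-38216511 on the plus strand for MAFF. NQO1 lies at chr16:69706996-69726951 on the minus strand and OSGIN1 at chr16:83948282-83966332 on the plus strand. AKR1C1 lies at chr10:4963253-4983283 and AKR1B10 at chr7:134527592-134541408, both on the plus strand, and UGDH at chr4:39498755-39528311 on the minus strand. The values below are per gene, over all exons. The promoters are shown for the 4 members that were called higher than control in a comparison below, because antioxidant response elements are the sequences through which NRF2 acts. The core of the element was searched as TGACNNNGC and TGAGNNNGC on both strands of the RefSeq promoters (GRCh38.p14, 250 bases before to 50 after a start site), and matches are in capitals, as read on the strand of the gene. For NQO1 and MAFF all the bases before the start site lie in annotated exons of the gene, so the match is shown with 10 bases on each side. The stretches, 5′ to 3′, are OSGIN1 at chr16:83952990-83953221 (plus strand), NQO1 at chr16:69726661-69726689 (minus strand), MAFF at chr22:38201862-38201890 (plus strand) and MAFG at chr17:81927736-81927985 (minus strand, no match).
OSGIN1: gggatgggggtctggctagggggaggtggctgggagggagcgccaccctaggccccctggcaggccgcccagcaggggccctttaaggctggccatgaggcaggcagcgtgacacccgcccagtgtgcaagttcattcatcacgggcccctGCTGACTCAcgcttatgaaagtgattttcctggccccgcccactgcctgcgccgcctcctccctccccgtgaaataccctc
NQO1: tcctggagctGCAGCCTCAgcatcctccg
MAFF: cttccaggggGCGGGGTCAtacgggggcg
MAFG: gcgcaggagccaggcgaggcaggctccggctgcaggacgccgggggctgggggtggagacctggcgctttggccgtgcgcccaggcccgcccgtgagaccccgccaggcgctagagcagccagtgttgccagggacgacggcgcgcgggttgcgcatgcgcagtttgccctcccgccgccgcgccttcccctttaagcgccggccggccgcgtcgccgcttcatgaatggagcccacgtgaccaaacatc
The OSGIN1 match reads TGAGTCAGC on the other strand, at chr16:83953141-83953149, and begins at -99 from the start site. It also fits the more closely specified form TGANTCAGC, which 1.36% of the 35116 promoters hold and which no other member window held. The same stretch holds TGACTCA, a match to TGANTCA, which 7.71% of the promoters hold. The NQO1 match reads TGAGGCTGC at -119, and the MAFF match reads TGACCCCGC at -122. MAFF has another RefSeq window, at chr22:38202770-38203069, which held no match and is not shown. The core itself is common: 29.1% of all promoters hold it. It was found in 7 of the 14 member windows, which belong to 7 of the 9 members with a RefSeq promoter; the windows of MAFG and BACH1 held none, and AKR1B10 had no promoter entry. These are matches of letters and no measurement of binding.

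The libraries held 17645545 to 23810056 expected counts, and all 10 genes passed the filter on low counts (14005 genes tested). AKR1B10 reached the filter's level of 0.434 counts scaled per library total (CPM) in 1 control library and in all 4 others. Fold changes between SS and control followed transcript length: Spearman's rho with the effective length was -0.699 across 13770 genes, which are not independent replicates, against -0.0419 for SS+NAC and control. Between SS and SS+NAC it was -0.651. Each result is therefore given from the fit with TMM scaling and, where a call or direction differs, from a fit with a length offset in each library. Of the epithelial and mesenchymal markers, KRT8 (977 to 1398 in TPM, RSEM's length-scaled level) and VIM (5744 to 6621) were high in all libraries, while CDH1 lay at 0.14 to 0.29 TPM, KRT19 at 0.96 to 2.19 and COL1A2 had at most 3 counts. KRT7, KRT8, KRT18 and VIM were called higher in SS than in control (log2 fold changes 0.40 to 0.48 by edgeR) and than in SS+NAC (0.49 to 0.71). With the length offset none of these was called against control, and all of them and PAX8 were called higher against SS+NAC. Other mesenchymal markers were lower: edgeR called CDH2 lower in SS than in control (-0.31), and CDH2 (-0.36), FN1 (-0.70) and COL1A1 (-0.34) lower in SS than in SS+NAC, none of them with the offset, while FN1 was called higher in SS+NAC than in control with the offset but not without it. Of the thyroid markers, TG lay at 0.22 to 0.30 TPM and TSHR was not analysed here, while PAX8 lay at 104 to 134. The 8 blood and endothelial markers summed to 85.0 to 89.8 TPM in control, 73.6 to 85.3 in SS and 103 to 113 in SS+NAC, nearly all of it CD68, a lysosomal protein, at 70.5 to 109. CD68 was called lower in SS than in SS+NAC with the offset. PTPRC lay at 0.53 to 0.77 TPM, and 2 of the 8, CD3E among them, had no more than 3 counts in any library. The part of these markers in the results was not tested. In bulk RNA, fewer cells with a transcript and less of it per cell cannot be told apart. With 2 libraries a group, each p-value rests on the spread between replicate libraries of this cell line. In the main fit that spread was estimated over the 3 groups together and shared among genes. The groups differed in it: chi-square per degree of freedom between replicates was 3.16 in control, 7.45 in SS and 12.3 in SS+NAC.

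Per length, NQO1 was the most abundant member in each group, with a mean of 194 ± 2.55 TPM in control, 231 ± 9.57 in SS and 288 ± 25.0 in SS+NAC (SD, n = 2 throughout). In control cells KEAP1 (65.3 ± 0.382 TPM) and NFE2L2 (64.7 ± 2.77) were level within their spread. MAFF followed at 48.9 ± 0.785 TPM and MAFG at 22.6 ± 0.622. BACH1 (15.7 ± 1.49) and UGDH (15.2 ± 1.24) did not differ beyond their spread, and OSGIN1 stood at 12.6 ± 0.813. The aldo-keto reductases were near the bottom of the range, AKR1C1 at 1.31 ± 0.120 TPM and AKR1B10 at 0.485 ± 0.0919. In SS+NAC, OSGIN1 reached 49.0 ± 3.42 TPM and stood above MAFG (35.6 ± 1.90), UGDH (16.0 ± 2.07) and BACH1 (15.8 ± 2.95).

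**Figure D1:**
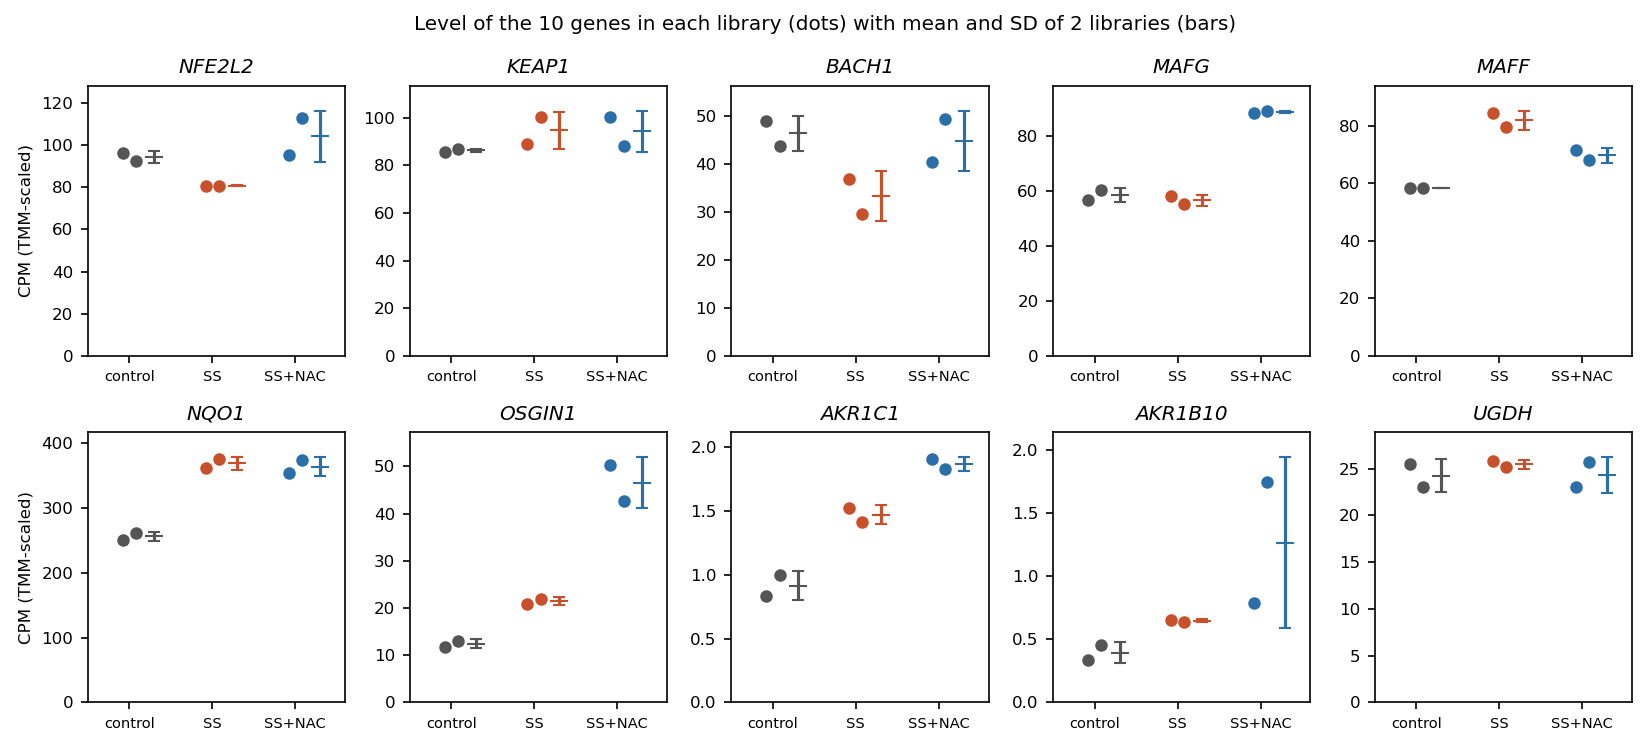
CPM (TMM-scaled, y axes from 0) of the 10 genes in each of the 6 libraries. Dots are libraries and bars are the mean and SD of 2 libraries; OSGIN1 rises from 11.7 and 13.1 in control to 50.4 and 42.7 in SS+NAC, while NQO1 is level in SS and SS+NAC.

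Between SS and control, OSGIN1, NQO1 and MAFF rose and BACH1 fell, and the other 6 members were not called. The rises were 1.72-fold for OSGIN1 (95% interval 1.44 to 2.05), 1.44-fold for NQO1 (1.28 to 1.61) and 1.41-fold for MAFF (1.26 to 1.57). These 4 calls among 10 genes (edgeR's quasi-likelihood test, Benjamini-Hochberg adjusted p of at most 0.05 over all genes tested) stand beside 40.0% of all tested genes called, 18.6% higher and 21.4% lower. With the length offset the share of all genes fell to 9.23% (4.30% higher and 4.93% lower), and OSGIN1, NQO1 and MAFF were still called while BACH1 was not. With Bonferroni adjustment, which the study's methods name, 0 members and 220 of all tested genes were called. Limma on log2(TPM + 1) called 3 members higher (OSGIN1, NQO1 and MAFF) and 3 lower (BACH1, NFE2L2 and MAFG), beside 5.08% of all genes higher and 37.4% lower. The libraries of SS and control did not overlap for 8 of the 10 members, 6 higher and 2 lower, against 73.2% of all tested genes (36.3% higher and 36.9% lower).

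Between SS+NAC and control, OSGIN1, MAFG and NQO1 rose and 0 members were called lower by edgeR, DESeq2 or limma, also at an unadjusted p under 0.05. OSGIN1 was 3.74-fold higher (3.16 to 4.41), MAFG 1.52-fold (1.35 to 1.70) and NQO1 1.42-fold (1.27 to 1.59). In this comparison 2.01% of all tested genes were called, 1.36% higher and 0.657% lower. This share changed strongly when single libraries were left out, as given below under the processing. With the length offset 2.04% were called (1.38% higher and 0.664% lower), and OSGIN1, MAFG and NQO1 were the members among them. With Bonferroni adjustment OSGIN1 was the 1 member called, among 40 of all tested genes. Limma on log2(TPM + 1) also called these 3 higher, beside 0.814% of all genes higher and 0.186% lower. The libraries did not overlap for 7 members, all higher, against 47.6% of all tested genes (24.0% higher and 23.6% lower). The 2 comparisons share the control libraries.

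Between SS and SS+NAC, OSGIN1 was at 0.460 of its SS+NAC level in SS (0.394 to 0.537) and MAFG at 0.638 (0.570 to 0.713). NFE2L2 and BACH1 were also lower in SS, and MAFF was higher, which makes 5 called members of 10, where 42.7% of all tested genes were called (19.6% higher and 23.1% lower). With the offset 14.4% of all genes (7.07% higher and 7.33% lower) and 3 members were called, namely OSGIN1, MAFG and NFE2L2. With Bonferroni adjustment 2 members and 191 of all tested genes were called. Limma on log2(TPM + 1) called 8 members lower, all but MAFF and UGDH, and 0 higher (0 also at an unadjusted p under 0.05), beside 4.46% of all genes higher and 46.3% lower. NQO1 did not pass, with a log2 difference of 0.02 and an interval of -0.14 to 0.18. The libraries did not overlap for 7 members, 1 higher and 6 lower, against 70.4% of all tested genes (32.3% higher and 38.1% lower). This comparison shares the SS libraries with the first and the SS+NAC libraries with the second.

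**Figure D2:**
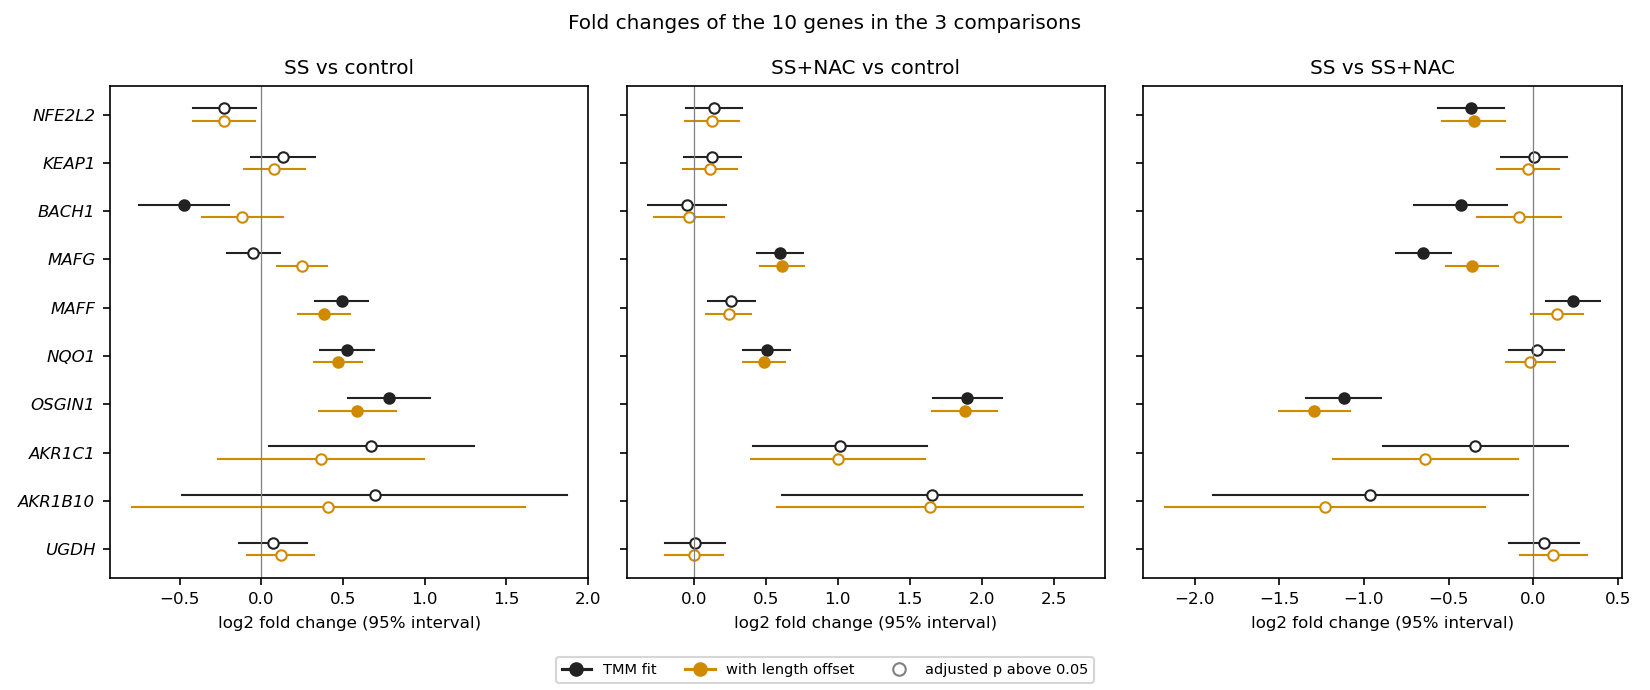
Log2 fold changes with 95% intervals (x axes, scaled separately) of the 10 genes in the 3 comparisons, from the TMM fit (black) and with the length offset (orange); filled points have an adjusted p of at most 0.05. OSGIN1 lies at 0.78 in SS and 1.90 in SS+NAC against control, and BACH1 moves from -0.48 to -0.12 with the offset in SS.

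**Figure D3:**
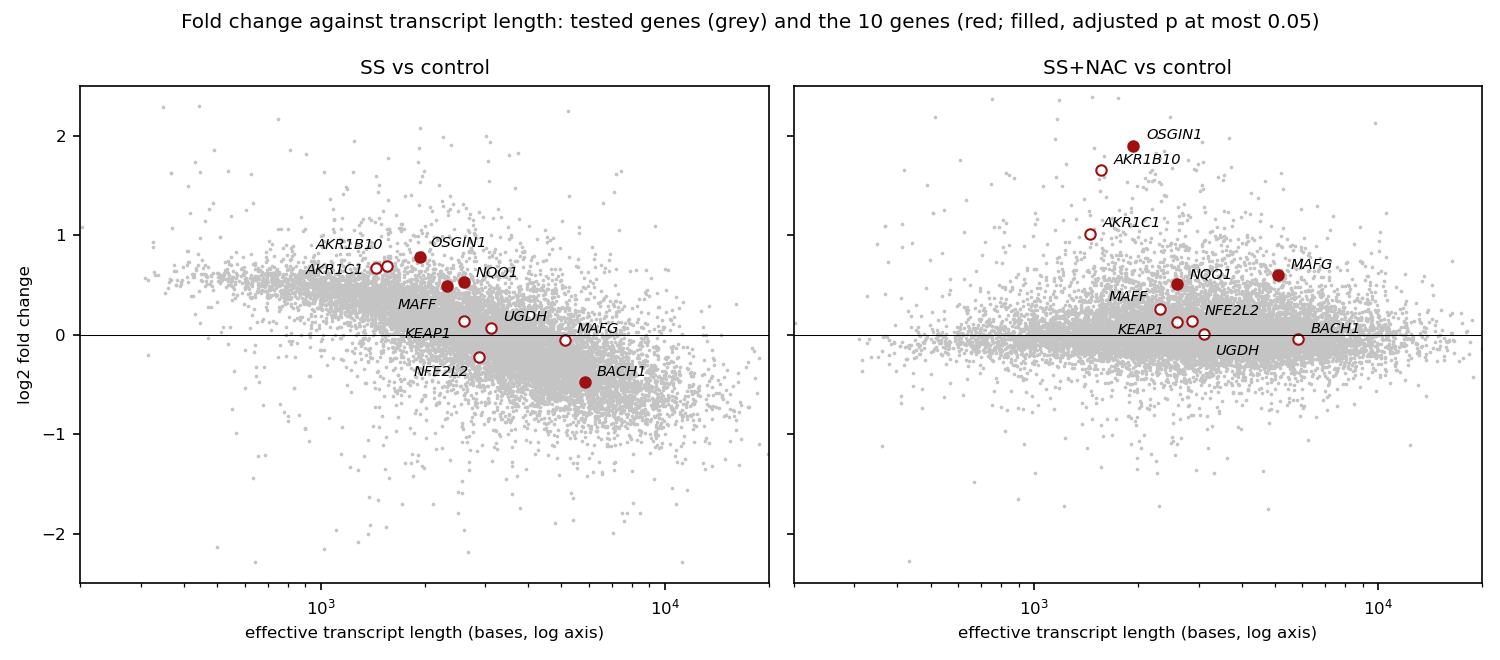
Log2 fold change (y axis) against effective transcript length in bases (log x axis) for tested genes with a length (grey) and the 10 genes (red, filled where called) in SS and in SS+NAC against control. Of 13770 genes, 36 and 28 lie outside the axes; the grey cloud slopes down with length in SS, and BACH1 and MAFG are the longest members at 5836 and 5104 bases.

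NFE2L2, which encodes NRF2 itself, had 96.5 and 92.5 CPM in control, 80.6 and 80.8 in SS and 95.4 and 113 in SS+NAC. Both SS libraries lay below the other 4. The log2 difference of SS from SS+NAC was -0.37 (SE 0.0873, edgeR adjusted p = 0.00692), and with the length offset -0.35 (adjusted p = 0.0221). Against control the difference of -0.23 (SE 0.0880) did not pass (edgeR adjusted p = 0.0621). It did not pass either with the length offset (-0.23, edgeR adjusted p = 0.128), with a replicate block (0.101) or by DESeq2's Wald test (0.0819). Leaving out 1 library, it ranged from -0.23 to -0.20. It passed in a fit of the 4 compared libraries only (edgeR adjusted p = 0.00847). It also passed on log2(TPM + 1) (-0.49, limma adjusted p = 0.00621), where the median of all genes was -0.20. Between SS+NAC and control the difference was 0.14 (edgeR adjusted p = 0.454), or 0.25 without SS+NAC 1 and 0.014 without SS+NAC 2. That of SS from SS+NAC was -0.48 and -0.24 without these libraries and was called in both fits. Of its 50-base words 17.1% also occur in transcripts of other genes, most of them in AC019080.1 on the same strand.

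KEAP1, the adaptor that targets NRF2 for degradation, had 85.7 and 86.8 CPM in control, 89.0 and 100.2 in SS and 100.4 and 88.1 in SS+NAC. The libraries of SS and SS+NAC overlapped. No comparison was called by edgeR for KEAP1: the log2 differences from control were 0.13 in SS (interval -0.06 to 0.33, edgeR adjusted p = 0.257) and 0.13 in SS+NAC (-0.07 to 0.32, adjusted p = 0.499). On log2(TPM + 1) the SS level was below that in SS+NAC (-0.32, limma adjusted p = 0.00398; all genes -0.27). BACH1, the repressor, had 48.9 and 43.7 CPM in control, 36.9 and 29.6 in SS and 40.3 and 49.2 in SS+NAC. Both SS libraries were the lowest of the 6. The log2 difference of -0.48 from control (SE 0.125, edgeR adjusted p = 0.0119) was -0.12 with the length offset (adjusted p = 0.572). The log2 difference of -0.43 between SS and SS+NAC (SE 0.124, edgeR adjusted p = 0.0175) was likewise -0.08 with the offset (0.644). Without SS 2 neither was called (adjusted p = 0.112 and 0.164), and the first was lost without control 1 (0.0807) and the second without SS+NAC 2 (0.0694).

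MAFG, a small Maf that lacks an activation domain and pairs with NRF2 or BACH1, had 56.7 and 60.2 CPM in control, 57.9 and 55.1 in SS and 88.2 and 89.0 in SS+NAC. Its SS+NAC libraries stood above the other 4, which overlapped. The rise in SS+NAC was 0.60 on the log2 scale (SE 0.0731, edgeR adjusted p = 0.00204), and the log2 difference of SS from SS+NAC was -0.65 (SE 0.0729, adjusted p = 0.000258), or -0.36 with the length offset (adjusted p = 0.00880). Against control the SS value was -0.05 (edgeR adjusted p = 0.631) and turned to 0.25 with the offset (0.0536), while on log2(TPM + 1) it was -0.31 (limma adjusted p = 0.0294; all genes -0.20).

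MAFF, a stress-responsive small Maf, had 58.2 and 58.3 CPM in control, 84.2 and 79.6 in SS and 71.4 and 67.9 in SS+NAC. In CPM the groups did not overlap, with SS the highest. In TPM, SS (61.9 and 53.4) overlapped with SS+NAC (60.9 and 62.2). Its rise in SS was 0.49 on the log2 scale (SE 0.0734, edgeR adjusted p = 0.000715), or 0.38 with the offset (0.00962). In SS+NAC the value was 0.26 (SE 0.0735, adjusted p = 0.118). The log2 difference of 0.23 between SS and SS+NAC (SE 0.0722, edgeR adjusted p = 0.0237) was not called with the offset (0.14, adjusted p = 0.195) and turned to -0.10 on log2(TPM + 1) (limma adjusted p = 0.343; all genes -0.27). It was also lost without control 1, without either SS library or without SS+NAC 2 (adjusted p between 0.0597 and 0.137). MAFK, the other small Maf, was at 27.1 and 25.1 CPM in control, 29.3 and 32.1 in SS and 30.2 and 25.9 in SS+NAC, and was called in no comparison by edgeR, DESeq2 or limma.

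NQO1 encodes the quinone oxidoreductase that is the usual marker gene of NRF2 activity. It had 251 and 261 CPM in control, 362 and 375 in SS and 353 and 374 in SS+NAC. All 4 treated libraries lay above both control libraries, and SS and SS+NAC overlapped. The rises were 0.53 on the log2 scale in SS (SE 0.0747, edgeR adjusted p = 0.000581; 0.47 with the offset, 0.00306) and 0.51 in SS+NAC (SE 0.0746, adjusted p = 0.00727). Between SS and SS+NAC the value on log2(TPM + 1) was -0.31 (limma adjusted p = 0.00585), where the median of all genes was -0.27. The call in SS+NAC was lost without control 1 (0.48, adjusted p = 0.133) or control 2 (0.54, 0.0720). Of its 50-base words 15.9% also occur in other transcripts, mainly the antisense AC092115.2, and the sources used here do not state whether strand was used in counting.

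OSGIN1, an oxidative stress-induced growth inhibitor, had 11.7 and 13.1 CPM in control, 20.8 and 22.0 in SS and 50.4 and 42.7 in SS+NAC. The groups were in that order without overlap. The rise was 0.78 on the log2 scale in SS (SE 0.113, edgeR adjusted p = 0.000631; 0.59 with the offset, 0.00923) and 1.90 in SS+NAC (SE 0.108, adjusted p = 4.03e-06). The log2 difference of SS from SS+NAC was -1.12 (SE 0.101, edgeR adjusted p = 0.000121), and -1.29 with the offset (9.87e-05). Leaving out any single library kept OSGIN1 called in the 3 comparisons. AC009119.2, an overlapping gene on the same strand, holds 13.8% of its 50-base words.

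The aldo-keto reductases AKR1C1 and AKR1B10 reduce carbonyls and are often high in cells with active NRF2. AKR1C1 had 0.834 and 0.995 CPM in control, 1.53 and 1.42 in SS and 1.90 and 1.83 in SS+NAC, from 15.1 to 45.5 expected counts a library. The groups did not overlap, but edgeR called no comparison over all genes tested: the log2 differences from control were 0.67 in SS (SE 0.284, edgeR adjusted p = 0.0827) and 1.02 in SS+NAC (SE 0.272, adjusted p = 0.100). The first was 0.36 with the length offset (edgeR adjusted p = 0.474) and 0.20 on log2(TPM + 1) (limma adjusted p = 0.207). It was called at 0.70 (edgeR adjusted p = 0.0476) where only genes with at least 10 counts in every library were tested. SS was called below SS+NAC on log2(TPM + 1) (-0.41, limma adjusted p = 0.0188). Its near copy AKR1C2 had 2.58 to 11.9 expected counts and was not tested, and 26.6% of the 50-base words of AKR1C1 also occur in AKR1C2, so these counts are uncertain. AKR1B10 had 0.333 and 0.452 CPM in control, 0.654 and 0.639 in SS and 0.787 and 1.74 in SS+NAC, from 5.54 to 41.8 expected counts. SS+NAC 2 stood apart from SS+NAC 1. The log2 differences from control were 0.69 in SS (SE 0.531, edgeR adjusted p = 0.331) and 1.65 in SS+NAC (SE 0.472, adjusted p = 0.118). Without SS+NAC 1 the latter was called at 2.12 (adjusted p = 0.00816), as was the difference of SS from SS+NAC at -1.42 (0.0102). Without SS+NAC 2 they were 0.97 (adjusted p = 0.439) and -0.28 (0.702). With all libraries the difference of SS from SS+NAC was -0.96 (edgeR adjusted p = 0.0893) and was called on log2(TPM + 1) (-0.62, limma adjusted p = 0.0349). AKR1B10 shares 11.6% of its words with AKR1B15, which had 0.611 and 0.950 CPM in control, 0.872 and 0.639 in SS and 1.28 and 1.37 in SS+NAC. AKR1B15 was not called by edgeR, and limma on log2(TPM + 1) called it lower in SS than in SS+NAC (-0.54, adjusted p = 0.00983).

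UGDH makes UDP-glucuronic acid, the donor for glucuronidation. It had 25.5 and 23.0 CPM in control, 25.8 and 25.1 in SS and 23.0 and 25.7 in SS+NAC. All groups overlapped in CPM. The log2 differences from control were 0.07 in SS (interval -0.14 to 0.28, edgeR adjusted p = 0.581) and 0.01 in SS+NAC (-0.20 to 0.22, adjusted p = 0.979), so that a change as large as that of NQO1 lay outside both intervals.

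The other genes of the pathway were divided into regulators, reduction enzymes, conjugation enzymes, exporters, and genes of thiol, NADPH, heme and iron metabolism. Among the 16 other regulators 2 were called higher and 5 lower in SS than in control (1 and 9 on log2(TPM + 1)), with a median log2 fold change of -0.09 against 0.00 for all tested genes. The edgeR counts are 12.5% and 31.3% of the list, beside 18.6% and 21.4% of all genes, and those on log2(TPM + 1) stand beside 5.08% and 37.4%. RBX1, the RING subunit of the CUL3 ligase, rose by 0.59 (edgeR adjusted p = 0.00152) and SQSTM1, the autophagy receptor that binds KEAP1, by 0.41 (0.00182). CUL3 itself fell by 0.34 (edgeR adjusted p = 0.00400). The related factor NFE2L1 fell by 0.38 (0.00218) and the ligase subunit BTRC fell by 0.36 (0.0110). With the length offset SQSTM1 was the only regulator called (0.36, adjusted p = 0.00748). It is 6.25% of the list, beside 4.30% of all genes higher and 4.93% lower with the offset. In SS+NAC, SQSTM1 rose further in CPM, from 431 and 449 in control and 588 and 584 in SS to 785 and 816 (0.86, edgeR adjusted p = 0.000165). TRIM16, which was named after its values were seen, was the other regulator called in SS+NAC (1.39, adjusted p = 5.94e-05). These 2 are 12.5% of the list, where 1.36% of all genes were called higher and 0.657% lower.

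Of 20 reduction enzymes tested, edgeR called 11 higher and 0 lower in SS than in control (median 0.40; 12 and 0 at an unadjusted p under 0.05; 10 and 0 of 25 by DESeq2), but 1 and 0 with the length offset, and limma on log2(TPM + 1), where the median of all genes was -0.20, called 0 higher and 1 lower. The 11 are 55.0% of the list, where 18.6% of all genes were called higher and 21.4% lower. The counts with the offset stand beside 4.30% and 4.93% of all genes, and those on log2(TPM + 1) beside 5.08% and 37.4%. DESeq2 called 2110 higher and 2501 lower of all 17687 genes. AKR1C3 rose by 0.66 (edgeR adjusted p = 0.0477), AKR1B1 by 0.59 (0.00101) and the prostaglandin reductase PTGR1 by 0.48 (0.00223). With the offset these were 0.29, 0.28 and 0.13, and none of the 3 was called. In SS+NAC 5 of the 20 were called higher, among them AKR1C3 (1.15, edgeR adjusted p = 0.0314), AKR1B1 (0.47, 0.0318) and PTGR1 (0.44, 0.0354), where 1.36% of all genes were called higher. With the offset 4 were called, without PTGR1 (0.43, adjusted p = 0.0553). Of 17 conjugation enzymes 9 were called higher and 1 lower in SS (median 0.47), 1 in each direction with the offset, and 6 and 2 on log2(TPM + 1). Beside these counts, all genes had 18.6% higher and 21.4% lower, 4.30% and 4.93% with the offset, where the list had 5.88% in each direction, and 5.08% and 37.4% on log2(TPM + 1). In SS+NAC edgeR called 1 of the 17 higher, MGST1, which was not called with the offset. GSTP1, a glutathione transferase, had 409 and 402 CPM in control, 601 and 702 in SS and 453 and 410 in SS+NAC (0.69 in SS, edgeR adjusted p = 0.000470; 0.24 with the offset, 0.0527). GSTZ1 (0.63) and MGST2 (0.59) were also called higher, and UGT8, a galactosyltransferase, lower (-0.49). None of these was called with the offset (0.30, 0.11 and -0.29), and the calls with it were GSTM3 (0.67, edgeR adjusted p = 0.0113) and UGP2 (-0.30, 0.0454), named after their values were seen.

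Among the 20 tested genes of thiol, NADPH, heme and iron metabolism, 12 were called higher and 1 lower in SS (median 0.33), 2 and 0 with the offset (6 and 0 at an unadjusted p under 0.05), and 4 in each direction on log2(TPM + 1). All genes had 18.6% higher and 21.4% lower, 4.30% and 4.93% with the offset, and 5.08% and 37.4% on log2(TPM + 1). BLVRB (0.81), TXN (0.57) and PRDX1 (0.51) had the largest rises of the list and effective lengths of 836, 848 and 1000 bases. With the offset the values were 0.34, 0.10 and 0.07, and BLVRB alone of these was called (edgeR adjusted p = 0.0362). SLC7A11, the cystine importer, had 32.8 and 36.0 CPM in control, 22.8 and 23.2 in SS and 133 and 168 in SS+NAC. It was the gene called lower in SS (-0.58, edgeR adjusted p = 0.00332), though not with the offset (-0.04, 0.875). In SS+NAC it was higher than control by 2.13 (edgeR adjusted p = 2.36e-06). In that comparison edgeR called 9 of the 20 genes higher and 0 lower (median 0.47; 15 and 0 at an unadjusted p under 0.05), against 10 and 0 with the offset and on log2(TPM + 1) and 11 and 0 of 21 by DESeq2. These include SRXN1 (1.31), TXNRD1 (1.19), GCLM (0.91), HMOX1 (0.85), GCLC (0.75) and GSR (0.74), which were named after their values were seen and encode sulfiredoxin, thioredoxin reductase, the glutamate-cysteine ligase subunits, heme oxygenase and glutathione reductase. Of these 6, HMOX1 was called higher in SS also (0.43, edgeR adjusted p = 0.00466; 0.15 with the offset, 0.359). Over all lists beside the 10 genes, edgeR called 18 of 81 tested genes (22.2%) higher in SS+NAC than in control and 0 lower, or 33 and 1 at an unadjusted p under 0.05. DESeq2, run on 91 genes of these lists, called 19 and 0, where it called 176 higher and 135 lower of all 17687 genes. The edgeR shares over all genes tested, at the adjusted p, were 1.36% higher and 0.657% lower. No share of all genes was computed at an unadjusted p under 0.05, so counts at that threshold have no background in this or any other list. For SS against control, edgeR called 35 of the 81 higher and 10 lower (43.2% and 12.3%, beside 18.6% and 21.4% of all genes), and 5 and 2 with the offset (6.17% and 2.47%, beside 4.30% and 4.93%). Limma on log2(TPM + 1) called 12 of the 81 higher and 20 lower, beside 5.08% and 37.4% of all genes.

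**Figure D4:**
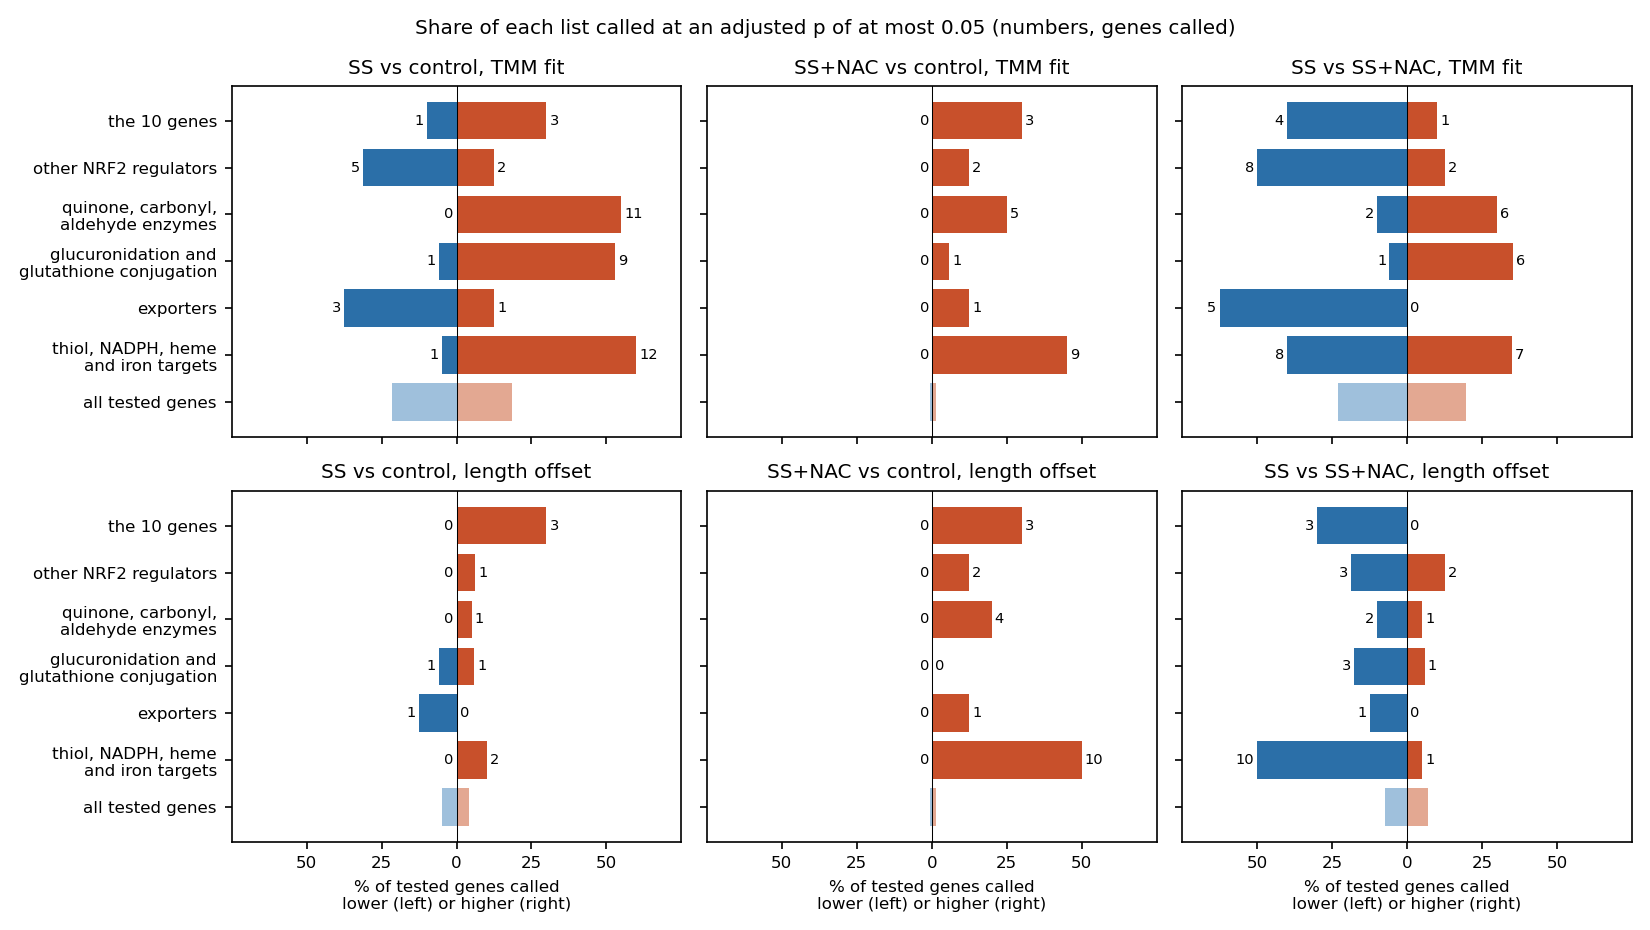
Percent of tested genes called lower (left, blue) or higher (right, red) in each list and among all tested genes (pale), by comparison, from the TMM fit (top) and with the length offset (bottom); numbers are genes called. In SS against control the 11, 9 and 12 higher calls of the enzyme and thiol lists become 1, 1 and 2 with the offset, while in SS+NAC the thiol list keeps 9 and 10.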

How the data were processed

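Polyadenylated RNA of 6 KHM-5M libraries (3 groups of 2) was primed at random and sequenced in single-end reads. Per the submitters' processing notes and the methods, reads were filtered with SOAPnuke, mapped with HISAT2 2.0.4 (Bowtie2 2.2.5 is also named), and quantified with RSEM 1.2.12. The annotation is not given in the sources used here, and the chromosome accessions of the table are those of GRCh38. The deposited table of 17687 genes gives RSEM's expected counts, as estimated by the authors for each library, and the TPM values made by the authors from them. The FPKM values in the deposited table, made by the authors with RSEM, gave the effective lengths through their ratio to the counts. The log2 fold changes and the p-values in the deposited table belong to the authors' DESeq2 comparisons and were not used, nor were the group means. There were 0 columns of other samples.

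Expected counts (43.6% to 45.6% of the values not whole) were rounded, filtered with filterByExpr and scaled by TMM in edgeR 4.0.16 (R 4.3.3). The 6 libraries were fitted together with the quasi-likelihood test for 3 comparisons, with Benjamini-Hochberg adjustment, where the study's methods name Bonferroni. The biological coefficient of variation was 6.74%. Replicates differed by more than sampling noise (chi-square per degree of freedom 3.16 to 12.3). CPM values are on the TMM scale. The length offset was a lowess (span 0.3) of the deviation of log2 CPM from its mean on log length, for each library. The fit and the offset were tested on simulated data. With a simulated length trend, most calls without the offset were false, and few with the offset were. Genes with that trend alone were counted as unchanged, so this shows only that the offset removes a trend of this kind. It cannot say which calls in the real SS libraries are false, and the origin of their length trend was not tested.

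The 10 genes were taken by name, and they and the pathway and marker lists were chosen with earlier results of these data known. From each list, the 3 genes with the largest fold change in each direction among those called in SS against control with at least 1 CPM were named, besides AKR1C2, AKR1C3, AKR1B1, AKR1B15 and MAFK. Promoters were from RefSeq, and words of 50 bases, the read length, were compared with all GENCODE release 29 transcripts. Alternatives were DESeq2 1.42.0 (size factors, Wald test), limma 3.58.1 on log2(TPM + 1), other filters, Bonferroni adjustment, fits of 4 libraries, the replicate number as a block, the length offset, and each library left out.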

Additional observations from a re-analysis of the deposited data

How the results depend on the processing

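Of 477 member fold changes under the alternatives, 414 kept their direction and side of the threshold, 26 kept their direction but lost their call, 10 kept it and gained a call, and 27 changed sign. Among the last, on log2(TPM + 1) in SS against SS+NAC, KEAP1 and NQO1 also gained a call and MAFF lost one. Called members in SS against control (4) numbered 0 with Bonferroni adjustment and 3 to 5 leaving out 1 library; genes called (5609) numbered 1293 with the length offset, 848 with offset and replicate block, 220 with Bonferroni adjustment and 3118 to 6579 leaving out 1 library. For SS+NAC against control, members (3) numbered 1 with Bonferroni adjustment and 2 to 4 leaving out 1 library, and genes (282) numbered 40 with Bonferroni adjustment, 140 by limma on log2(TPM + 1) and 98 to 1086 leaving out 1 library. The lowest counts there were without control 1 and control 2 (98 and 99) and the highest was without SS+NAC 1. For SS against SS+NAC, members (5) numbered 3 with the offset, with or without the block, 2 with Bonferroni adjustment, 8 by limma and 3 to 6 leaving out 1 library, and genes (5985) numbered 2017 with the offset, 1351 with offset and block, 191 with Bonferroni adjustment and 3250 to 6339 leaving out 1 library. On log2(TPM + 1) the median of all genes was -0.20, 0.04 and -0.27 in the 3 comparisons, and calls split into 712 higher and 5240 lower (2605 and 3004 by edgeR), 114 and 26 (190 and 92), and 624 and 6490 (2745 and 3240).

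Signs changed on log2(TPM + 1) for KEAP1 (-0.14) and UGDH (-0.17) in SS against control, BACH1 (0.0038) in SS+NAC against control, and KEAP1 (-0.32), MAFF (-0.10), NQO1 (-0.31) and UGDH (-0.23) in SS against SS+NAC. With the length offset, and with offset and block, they changed for MAFG in SS against control (0.25 and 0.25), UGDH in SS+NAC against control (-0.0023 and -0.0028), and KEAP1 (-0.0315 and -0.0314) and NQO1 (-0.0169 and -0.0164) in SS against SS+NAC. UGDH in SS+NAC was also -0.0101 with the DESeq2 size factors and -0.0149 by the Wald test. Leaving out 1 library, MAFG in SS ranged from -0.0939 to 0.0231, BACH1 in SS+NAC from -0.20 to 0.0894, UGDH in SS+NAC from -0.0742 to 0.0844, and KEAP1, NQO1 and UGDH in SS against SS+NAC from -0.0880 to 0.10, -0.0204 to 0.0601 and -0.0128 to 0.14. The cause of these changes was not tested. AKR1C1 was called in SS (0.70, edgeR adjusted p = 0.0476) with at least 10 counts in every library, a filter that removes AKR1B10.

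The labels do not say that equal replicate numbers belong together, and the deviations of same-numbered libraries correlated at 0.113, -0.105 and -0.175 between groups. With a replicate block, members called were 4, 3 and 4 and genes called 4857, 211 and 5136 in the 3 comparisons; MAFF in SS against SS+NAC was lost (edgeR adjusted p = 0.0591). A crossed replicate block, added after seeing the data, called 7151, 1475 and 7286 genes.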

Other observations

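The exporters of conjugated products were the pathway list with the longest transcripts (median effective length 4129 bases). Of 8 tested, edgeR called 1 higher and 3 lower in SS than in control, and 0 and 1 with the length offset (1 and 1 at an unadjusted p under 0.05; DESeq2 without the offset 0 and 3 of 9). The edgeR counts are 12.5% and 37.5% of the list, beside 18.6% and 21.4% of all genes, and the 1 lower with the offset stands beside 4.93%. The DESeq2 counts stand beside 2110 higher and 2501 lower of all 17687 genes. ABCC4, ABCC5 and ABCC1, which export glutathione conjugates and other organic anions, had log2 fold changes of -0.61, -0.47 and -0.26 (edgeR adjusted p = 0.000375, 0.00352 and 0.0147), and ABCC6 was higher (0.68, 0.0260). With the offset ABCC4 was still called (-0.26, adjusted p = 0.0474). In SS+NAC, ABCC3, named after its values were seen, was the exporter called higher than control (0.92, edgeR adjusted p = 0.0298), from 16.3 and 13.2 CPM in control to 22.7 and 33.1. It is 12.5% of the 8 tested, where 1.36% of all genes were called higher and 0.657% lower.

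Across the 6 libraries, the genes among 9527 with at least 10 CPM whose log2 CPM followed NFE2L2 most closely were TMEM135, MTIF2 and DCAF17 (Pearson's r 0.997, 0.996 and 0.995), and those for NQO1 were HERPUD1, HLA-C and MAGED1 (0.994, 0.994 and 0.991). These values describe 3 groups of 2 libraries and share their depth and treatment.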
